A study of Mus musculus with 8 samples.

Results

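The 8 genes described here encode the plasma membrane glucose transporters GLUT1 (Slc2a1) and GLUT3 (Slc2a3), their relatives GLUT6 (Slc2a6), GLUT8 (Slc2a8) and GLUT9 (Slc2a9), the monocarboxylate transporters MCT1 (Slc16a1) and MCT4 (Slc16a3), and Basigin (Bsg), the chaperone of both MCTs. They were chosen by name from the 56748 genes of the RNA sequencing table and followed through all 8 libraries. The cells were mouse 32D cells, a bone marrow line of myeloid origin that depends on interleukin-3 for growth. All had been transduced with either murine Jak2WT or murine Jak2V617F, the activating mutation of myeloproliferative neoplasms. In each background, 2 GLUT1/3 WT clones and 2 clones edited with CRISPR-Cas9 in both Slc2a1 and Slc2a3 (GLUT1/3 dKO) were sequenced, which gave 4 groups of 2. Every clone was grown for 24 h in medium holding glucose at 5 mM, IL-3 at 2 ng/ml and glutamine at 1 mM. Each dKO group is thus a pair of clones. The p-values rest on the spread between clones within a group, pooled over all 4 groups and moderated by that of other genes. Per the study's supplement, the Slc2a1 deletion has the same size in the dKO clones of a background, and whether these clones are independent edits or share an edited ancestor was not tested. The table does not separate the introduced Jak2 from the endogenous gene.

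GLUTs carry glucose down its gradient, and GLUT1 and GLUT3 provide the basal uptake of many cell types, blood cells among them. Inside the cell, glucose is trapped by phosphorylation and, in glycolytic cells, leaves largely as lactate. MCT1 and MCT4 move lactate together with a proton, and both rely on Basigin to reach the plasma membrane. In myeloid cells with active JAK2 signalling, glycolysis and glucose uptake are known to be high, and Slc2a1 and Slc16a3 are textbook targets of hypoxia-inducible factor 1 (HIF-1).

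An edited site of each gene is shown first. A further cut was made in Slc2a1 with another guide, which is not shown here. The sites shown both lie early in the coding sequence. The Slc2a1 guide shown (chr4:118989341-118989360, GRCm39, forward strand) had 1 perfect match in the genome, in exon 3 of 10 of the transcript Slc2a1-201, with 152 of the 1476 coding bases (10.3%) before the cut. The Slc2a3 guide (chr6:122716798-122716817, GRCm39, reverse strand) likewise had 1 perfect match, in exon 3 of 10 of Slc2a3-201 (the study numbers this exon differently), with 260 of 1479 coding bases (17.6%) before the cut. In the reference sequences below, each read 5′ to 3′ on the strand of its gene, capitals mark the guide target and the next 3 bases are the PAM (CGG and TGG). The windows are chr4:118989301-118989400 and chr6:122716758-122716857.
Slc2a1 target: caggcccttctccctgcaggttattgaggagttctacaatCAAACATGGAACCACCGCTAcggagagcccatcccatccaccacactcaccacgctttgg
Slc2a3 target: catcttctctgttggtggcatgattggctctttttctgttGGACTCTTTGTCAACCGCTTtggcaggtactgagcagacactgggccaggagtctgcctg
FPKM counts the reads over the whole gene relative to gene length and library size, so it shows how much transcript was present and not which allele it came from. Per the study's supplement, the edit of Slc2a1 in the dKO clones is a deletion much larger than the small changes in most Slc2a3 alleles, and its size differs between Jak2WT and Jak2V617F. Transcribed bases inside a deletion give no reads while the length that FPKM divides by stays the same. The part of this in the Slc2a1 values of the dKO clones was not tested.

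The libraries held 16846011 to 48884329 reads on genes, and the spread within a group exceeded counting error. Jak2 was listed at 218 to 258 FPKM in the 4 Jak2WT libraries and at 139 to 165 FPKM in the 4 Jak2V617F libraries. These levels do not show which allele was read, so they are no check of the background labels. Of 10 myeloid progenitor markers, 5 were expressed in every group, and Mpo, Elane, Ctsg, Cebpa and Kit stayed below 1 FPKM. The list summed to 219 to 247 FPKM in Jak2WT GLUT1/3 WT, 160 to 197 in Jak2WT dKO, 196 to 201 in Jak2V617F GLUT1/3 WT and 89.1 to 92.0 in Jak2V617F dKO. Lymphoid markers (6 genes) summed to at most 0.708 FPKM and stromal markers (5 genes) to at most 0.0353 FPKM in any library. Of 10 erythroid markers, Alas2 and Slc4a1 were below 1 FPKM in all groups, while the summed level of the list was 94.0 to 112 FPKM in Jak2WT GLUT1/3 WT, 246 to 291 in Jak2WT dKO, 553 to 910 in Jak2V617F GLUT1/3 WT and 2582 to 4679 in Jak2V617F dKO. The erythroid sum, with its largest part from globin genes, therefore moved with both factors of the design. So did the megakaryocyte sum of 5 genes (65.0 to 65.7, 89.4 to 94.3, 183 to 193 and 194 to 249 FPKM in the same order). Single genes differed. For the dKO in Jak2WT and Jak2V617F, limma called 2 and 5 of 7 tested erythroid genes higher, and Gata1 lower in Jak2V617F (-0.50, adjusted p = 0.0246). It called 3 of 5 megakaryocyte genes higher in each, without Itga2b and Gp9 in Jak2V617F. Of all tested genes, 7.62% and 13.7% were called higher. The part of both lists in the results below was not tested. The mast cell list of 6 genes summed to 51.1 to 101 FPKM in the Jak2WT libraries and to at most 1.96 FPKM in the Jak2V617F libraries, nearly all of it Cpa3. In such bulk libraries, fewer cells of a type and less RNA per cell cannot be told apart.

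The members spanned more than 3 orders of magnitude. Averaged over the 8 libraries, Bsg (217 FPKM) ranked 175 of all listed genes, Slc2a3 (86.5 FPKM) 498, Slc16a1 (52.6 FPKM) 921 and Slc2a1 (32.3 FPKM) 1623. Slc2a8 (3.18 FPKM), Slc2a9 (2.31 FPKM) and Slc2a6 (0.705 FPKM) were low, and Slc16a3 (0.0981 FPKM) was close to absent. FPKM is scaled by gene length, so these levels may be set side by side. Of the 8, 7 reached an FPKM of 1 in at least 2 libraries and were tested. Slc2a6 did so only through the Jak2WT libraries.

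**Figure D1:**
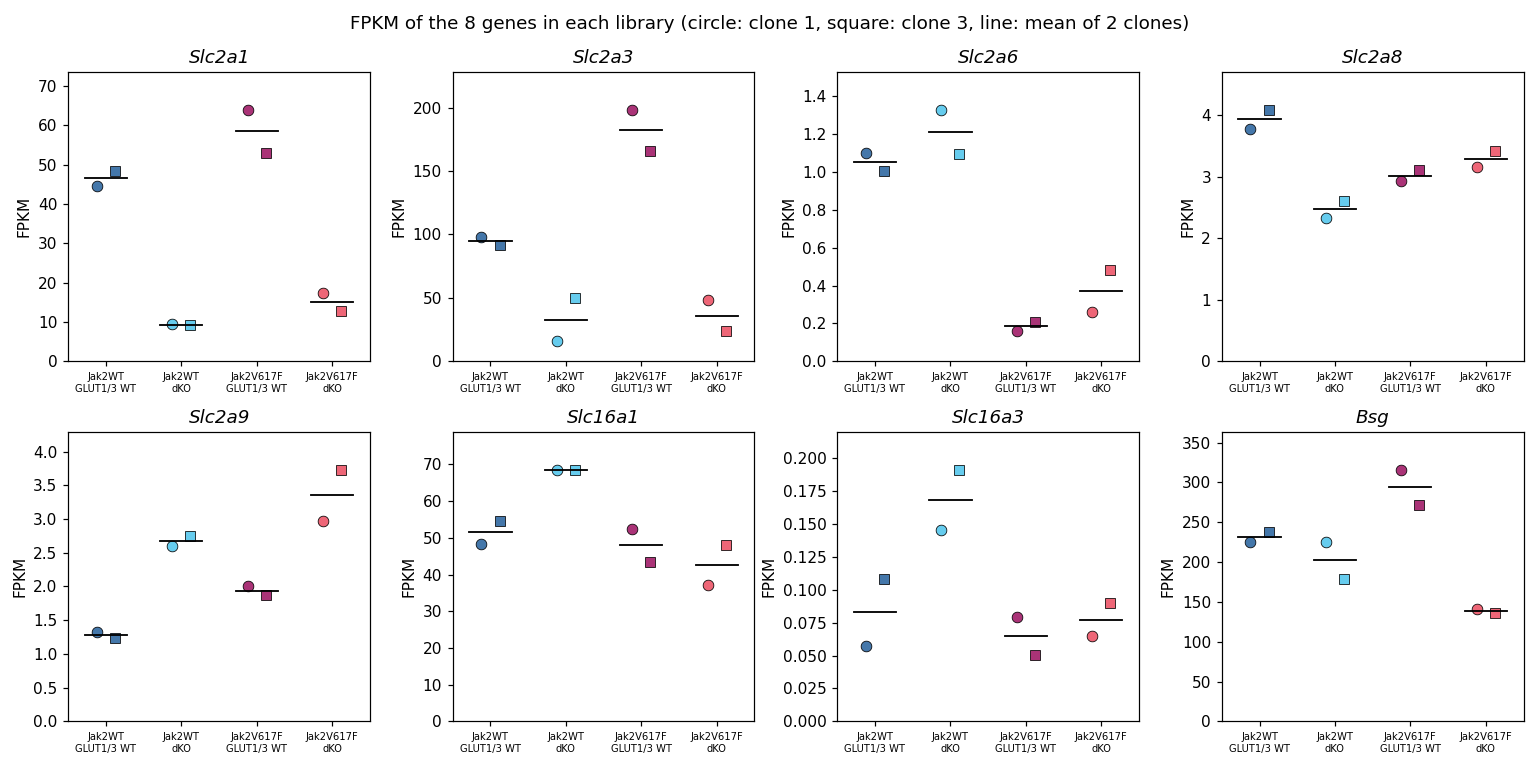
FPKM (vertical axis, linear from 0, a scale for each gene) of the 8 genes in the 4 groups. Circles are clone 1, squares clone 3 and lines the mean of 2 clones. Slc2a1 and Slc2a3 were lower in all 4 dKO clones than in any GLUT1/3 WT clone, with Slc2a3 at 16.0 and 49.5 FPKM in the Jak2WT dKO clones.

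The first question was how far the transcripts of the edited genes themselves were lost. With Jak2WT, Slc2a1 stood at 44.7 and 48.4 FPKM in GLUT1/3 WT clones against 9.47 and 9.17 FPKM in dKO clones. In the Jak2V617F background it stood at 64.0 and 53.0 FPKM in the GLUT1/3 WT clones and at 17.3 and 12.7 FPKM in the dKO clones. All 4 dKO clones lay below all 4 GLUT1/3 WT clones, and 20.3% and 19.7% (Jak2WT) or 29.5% and 21.8% (Jak2V617F) of the mean of the matching WT group remained. On the log2(FPKM + 1) scale, Slc2a1 fell by 2.20 ± 0.15 (SE) in Jak2WT (limma, adjusted p = 0.000872) and by 1.90 ± 0.15 in Jak2V617F (adjusted p = 0.000444). Both calls held in each of 18 alternatives, with a highest adjusted p of 0.0139.

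Slc2a3 was the more abundant transcript and the less even one. Unedited Jak2WT clones reached 97.7 and 91.9 FPKM, against 16.0 (clone 1) and 49.5 (clone 3) FPKM in the Jak2WT dKO clones. In Jak2V617F the GLUT1/3 WT clones had 198 and 166 FPKM, and the dKO clones 48.2 (clone 1) and 23.8 (clone 3) FPKM. Here too no dKO clone reached any GLUT1/3 WT clone. The share of the WT mean that remained was 16.9% and 52.2% in the Jak2WT dKO clones and 26.4% and 13.1% in the Jak2V617F dKO clones.

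The fall of Slc2a3 passed the test in Jak2V617F (log2 fold change -2.39 ± 0.49, limma adjusted p = 0.0115) and not in Jak2WT (-1.71 ± 0.49, adjusted p = 0.0612), and the difference between these effects did not pass it either (-0.68, 95% interval -2.32 to 0.96). Without Jak2WT dKO clone 3 the Jak2WT change was -2.49 (adjusted p = 0.0358), and with the libraries scaled to the same total FPKM (adjusted p = 0.0498) or with voom on recovered reads (adjusted p = 0.0199) it passed as well. Without Jak2V617F GLUT1/3 WT clone 1 the Jak2V617F change was -2.26 (adjusted p = 0.0602), and without Jak2V617F dKO clone 3 it was -1.89 (adjusted p = 0.0539). The pair of Jak2WT dKO clones differed in Slc2a3 by 1.57 on the log2 scale, a gap that 0.288% of the 11818 tested genes matched or passed in these libraries. In the Jak2V617F dKO pair the gap was 0.99, matched or passed by 2.01% of genes. For Slc2a1 the corresponding gaps were 0.04 (79.4% of genes) and 0.41 (12.7%).

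The ratio of Slc2a3 to Slc2a1 within a library does not depend on how the library was scaled. Among GLUT1/3 WT clones it was 2.19 and 1.90 with Jak2WT but 3.10 and 3.14 with Jak2V617F, without overlap, so that GLUT3 transcripts made up 64.2% ± 2.2 (SD, n = 2) and 74.1% ± 0.081 (SD, n = 2) of the summed Slc2a family. The dKO clones were scattered, at 1.69 and 5.40 in Jak2WT and at 2.79 and 1.87 in Jak2V617F. The ratio was not tested, and an exact permutation of 2 clones against 2 cannot give a p below 0.333.

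Slc2a1 and Slc2a3 together made up 95.7% and 95.8% of the summed Slc2a FPKM in unedited Jak2WT clones and 97.7% and 98.1% in unedited Jak2V617F clones. The family sum was 147 to 149 FPKM in the former and 224 to 268 FPKM in the latter. It was 31.8 to 65.2 FPKM in Jak2WT dKO and 44.3 to 72.2 FPKM in Jak2V617F dKO, where Slc2a1 and Slc2a3 still held 80.2 to 90.7%. The other Slc2a genes summed to 6.27 ± 0.088 FPKM in Jak2WT GLUT1/3 WT, 6.39 ± 0.13 in Jak2WT dKO, 5.18 ± 0.11 in Jak2V617F GLUT1/3 WT and 7.22 ± 0.71 in Jak2V617F dKO (SD, n = 2 each). The transcripts that remained in the dKO clones were thus, by amount, mostly those of the edited genes.

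**Figure D2:**
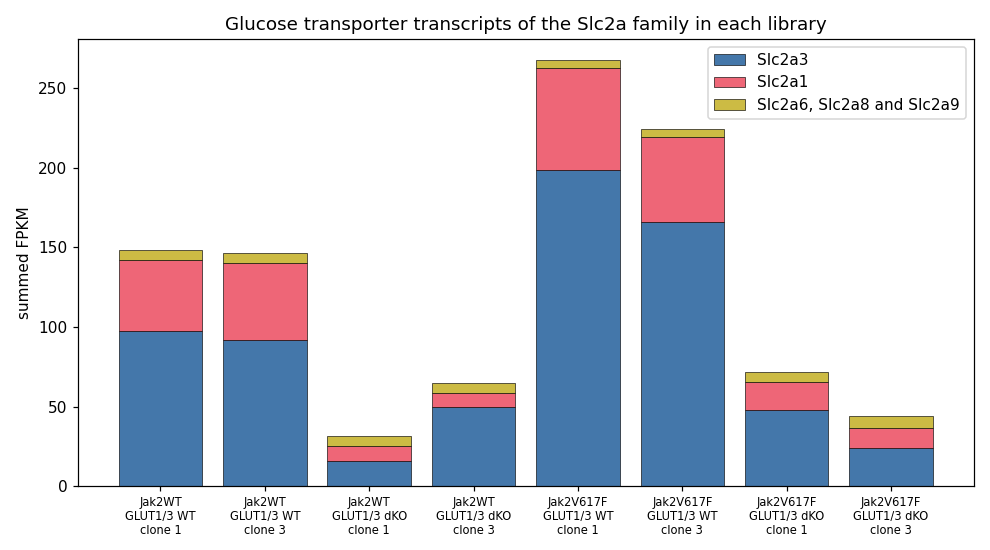
Summed FPKM (vertical axis, linear from 0) of Slc2a3, Slc2a1 and the 3 lesser GLUT genes Slc2a6, Slc2a8 and Slc2a9 in each of the 8 libraries. The sums fall from 147 to 268 FPKM in the GLUT1/3 WT clones to 31.8 to 71.9 FPKM in the dKO clones, and the top segment of the lesser GLUTs stays below 8 FPKM throughout.

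The lesser GLUTs did not move together. Slc2a9, a GLUT best known for carrying urate, rose in the dKO clones of both backgrounds. It was listed at 1.33 and 1.24 FPKM in Jak2WT GLUT1/3 WT and at 2.60 and 2.75 FPKM in Jak2WT dKO. In Jak2V617F the values were 2.00 and 1.87 FPKM in GLUT1/3 WT and 2.98 and 3.73 FPKM in dKO. Every dKO clone exceeded every GLUT1/3 WT clone. The log2 fold change was 0.69 ± 0.12 in Jak2WT (limma, adjusted p = 0.0141) and 0.56 ± 0.12 in Jak2V617F (adjusted p = 0.0128), on 109 to 689 reads a library. The Jak2WT call was lost without any 1 of the 4 Jak2WT libraries (adjusted p = 0.0775 to 0.0891). The Jak2V617F call was lost without Jak2V617F GLUT1/3 WT clone 3 (adjusted p = 0.0545) and in a fit of the Jak2V617F groups alone (adjusted p = 0.0626). The effects in the 2 backgrounds differed by -0.13 (95% interval -0.52 to 0.27).

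Slc2a8 encodes a GLUT held mostly in intracellular membranes. Its values were 3.78 and 4.10 FPKM in Jak2WT GLUT1/3 WT, and 2.33 and 2.61 FPKM in Jak2WT dKO. In Jak2V617F they were 2.94 and 3.10 FPKM in GLUT1/3 WT and 3.16 and 3.42 FPKM in dKO. The groups were apart in both backgrounds, downward in Jak2WT and upward in Jak2V617F. Only the former passed the test (-0.51 ± 0.096, limma adjusted p = 0.0184; in Jak2V617F 0.094 ± 0.096, adjusted p = 0.499), and the difference between the effects passed it as well (0.60, 95% interval 0.28 to 0.92, adjusted p = 0.0368). The call in Jak2WT was lost without any 1 of the 4 Jak2WT libraries (adjusted p = 0.0671 to 0.124). The call on the difference was lost without any 1 library other than Jak2V617F dKO clone 1 (adjusted p = 0.0617 to 0.134).

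Slc2a6, which encodes a GLUT of lysosomal membranes, was set apart by background. It was at 1.10 and 1.01 FPKM in Jak2WT GLUT1/3 WT and at 1.33 and 1.09 FPKM in Jak2WT dKO, against 0.160 and 0.209 FPKM in Jak2V617F GLUT1/3 WT and 0.260 and 0.482 FPKM in Jak2V617F dKO. Since it entered the test through the Jak2WT libraries alone, a difference between the backgrounds was built into its entry, and its adjusted p-values (0.0133 among GLUT1/3 WT and 0.0339 among dKO) are given as a description. Without either Jak2WT GLUT1/3 WT clone or Jak2V617F GLUT1/3 WT clone 1 the former was 0.0532 to 0.0766. The latter was not called in 8 of 17 alternatives, with an adjusted p of up to 0.188. No effect of the dKO passed the test (0.11 ± 0.17 in Jak2WT and 0.21 ± 0.17 in Jak2V617F). In the Jak2V617F libraries it rested on 11 to 39 reads.

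The other Slc2a genes and the Slc5a genes that were looked up were at or near 0, and other sugar carriers were not examined. None of the other 7 Slc2a genes on the list reached 1 FPKM in any library, with a highest value of 0.262 FPKM, and Slc2a2 (GLUT2), Slc2a5 (the fructose transporter GLUT5) and Slc2a13 were listed at 0 throughout. Slc2a4, the insulin-responsive GLUT4, had group means of at most 0.0207 FPKM. The 7 sodium glucose cotransporters of the Slc5a family did not exceed 0.0306 FPKM.

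On the lactate side, Slc16a1 carried nearly all of the signal. It was listed at 48.3 and 54.6 FPKM in Jak2WT GLUT1/3 WT and at 68.5 and 68.3 FPKM in Jak2WT dKO. In Jak2V617F it was at 52.4 and 43.5 FPKM in GLUT1/3 WT and at 37.1 and 48.0 FPKM in dKO. The Jak2WT dKO clones stood above all 6 others, and the Jak2V617F groups overlapped with each other. Neither effect of the dKO passed the test (0.41 ± 0.14 in Jak2WT, limma adjusted p = 0.10; -0.17 ± 0.14 in Jak2V617F, adjusted p = 0.397), and neither did their difference (-0.58, 95% interval -1.05 to -0.11, adjusted p = 0.108). Without Jak2V617F dKO clone 3 that difference was -0.76 (adjusted p = 0.0458), and without Jak2V617F dKO clone 1 the effect in Jak2V617F was 0.0088. Fitted on the Jak2WT groups alone, the rise in Jak2WT passed (adjusted p = 0.0353).

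Slc16a3 encodes MCT4, the form typical of cells that export much lactate. It did not exceed 0.191 FPKM, with 0.0570 and 0.108 FPKM in Jak2WT GLUT1/3 WT, 0.145 and 0.191 in Jak2WT dKO, 0.0790 and 0.0505 in Jak2V617F GLUT1/3 WT, and 0.0649 and 0.0895 in Jak2V617F dKO. These values stand for 8 to 50 reads a library, and the gene was not tested. Slc16a3 overlaps Csnk1d on the opposite strand, which held 3976 to 11148 reads. Whether reads were counted by strand is not stated in the sources used here, so the 2 genes' reads may not be fully separated. Slc16a1 gave at least 99.7% of the summed FPKM of both MCT genes in every library.

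Basigin was the most abundant member and the one whose dKO effect differed most between the backgrounds among those tested, after scaling by its error. It was at 225 and 238 FPKM in Jak2WT GLUT1/3 WT and at 226 and 178 FPKM in Jak2WT dKO, 2 ranges that overlap. In Jak2V617F it was at 316 and 272 FPKM in GLUT1/3 WT and at 141 and 136 FPKM in dKO, which were the 2 lowest values of the series. Bsg thus fell by 1.08 ± 0.13 on the log2 scale in Jak2V617F (limma, adjusted p = 0.00148), to 47.2% of the GLUT1/3 WT mean, a call that held in all 18 alternatives. In Jak2WT the change was -0.20 ± 0.13 (adjusted p = 0.319). The difference between the effects was -0.87 (95% interval -1.29 to -0.45, adjusted p = 0.0302). That call was lost without any 1 library other than Jak2WT dKO clone 3 or Jak2V617F GLUT1/3 WT clone 3 (adjusted p = 0.0543 to 0.109). The summed myeloid progenitor markers were also lowest in the Jak2V617F dKO clones (89.1 to 92.0 FPKM, against 196 to 201 in Jak2V617F GLUT1/3 WT), where 3 of the 5 tested genes of that list and 16.2% of all tested genes were called lower, and their part in the fall of Bsg was not tested. The other MCT chaperone, Embigin (Emb), was at most 0.15 FPKM.

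Relative to its MCT partners, Bsg was lower in the dKO clones of both backgrounds. The ratio of Bsg to Slc16a1 plus Slc16a3 was 4.66 and 4.35 in Jak2WT GLUT1/3 WT, and 3.29 and 2.60 in Jak2WT dKO. It was 6.02 and 6.26 in Jak2V617F GLUT1/3 WT, and 3.79 and 2.83 in Jak2V617F dKO. The ranges of the GLUT1/3 WT groups did not overlap with each other or with those of the dKO groups. Slc16a1 was at 0.325 and 0.372 of the summed Slc2a FPKM in Jak2WT GLUT1/3 WT and at 0.194 and 0.196 in Jak2V617F GLUT1/3 WT, against 2.15 and 1.05 in Jak2WT dKO and 0.514 and 1.08 in Jak2V617F dKO.

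**Figure D3:**
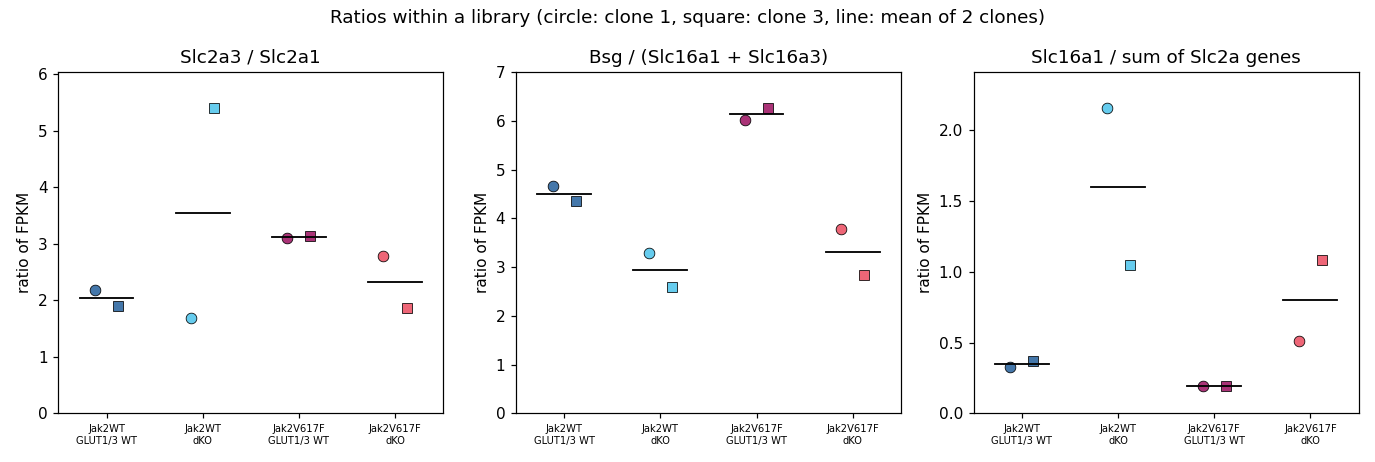
Ratios of FPKM within each library (vertical axes, linear from 0) in the 4 groups, for Slc2a3 over Slc2a1, Bsg over Slc16a1 plus Slc16a3, and Slc16a1 over the summed Slc2a genes. Circles are clone 1, squares clone 3 and lines the mean of 2 clones. The GLUT1/3 WT clones lie close together in each ratio, while the Jak2WT dKO clones lie at 1.69 and 5.40 in the first.

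Counted over the members, 3 of the 7 tested passed the threshold for the dKO in Jak2WT (Slc2a1 and Slc2a8 lower, Slc2a9 higher), where 13.7% of all tested genes did (7.62% higher and 6.06% lower). In Jak2V617F, 4 of 7 passed (Slc2a1, Slc2a3 and Bsg lower, Slc2a9 higher), where 29.9% of all genes did (13.7% higher and 16.2% lower). Slc2a1 and Slc2a3 were the edited genes. The clones did not overlap for 5 and 6 of the 7, against 66.2% and 64.3% of all genes. The median log2 fold change of the 7 was -0.20 in Jak2WT and -0.17 in Jak2V617F, and that of all tested genes 0.0082 and -0.019. With no filter on low values, the calls of Slc2a8 and Slc2a9 in Jak2WT, of Slc2a3 and Slc2a9 in Jak2V617F and of the differences in Slc2a8 and Bsg between backgrounds were lost (adjusted p = 0.0510 to 0.0981). For the difference between the backgrounds, 2 of 7 passed (Slc2a8 upward and Bsg downward), where 10.6% of all genes did (4.72% upward and 5.91% downward).

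The comparisons of Jak2V617F with Jak2WT asked how the transporters stood in the mutant background before and after editing. Each shares its libraries with the dKO comparisons above. Among GLUT1/3 WT clones, Slc2a3 was 1.92-fold and Slc2a1 1.26-fold higher in Jak2V617F, and both Jak2V617F clones exceeded both Jak2WT clones in each gene. Neither passed the test: Slc2a3 had a log2 fold change of 0.93 ± 0.49 (limma, adjusted p = 0.192), with the spread of the dKO clones in the shared error, and Slc2a1 of 0.32 ± 0.15 (adjusted p = 0.145). Fitted on the 2 GLUT1/3 WT groups alone, Slc2a3 passed (adjusted p = 0.00779), while Slc2a1 did not in any alternative (lowest adjusted p = 0.0626). Bsg (0.34 ± 0.13, adjusted p = 0.0842), Slc2a9 (0.37 ± 0.12, adjusted p = 0.0548) and Slc2a8 (-0.30 ± 0.096, adjusted p = 0.0540) also stood apart without passing, and Slc16a1 overlapped (-0.10 ± 0.14). Slc2a8 and Slc2a9 each passed in 4 of 18 alternatives, Slc2a9 among them without either Jak2V617F dKO clone (adjusted p = 0.0344 and 0.0361). With Slc2a6 set aside, since the filter fixed its difference, limma called 0 of the 6 other tested members, where 30.3% of all genes were called (15.3% higher and 14.9% lower). An unadjusted p under 0.05 was reached by 3 of the 6, and voom on recovered reads called 1, Slc2a8. The clones did not overlap for 5 of the 6, where 69.4% of all genes did not.

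Among the dKO clones, again with Slc2a6 set aside, 3 of 6 passed, where 17.1% of all genes did (7.12% higher and 9.96% lower), and 5 of 6 did not overlap, where 60.6% of all genes did not. Slc2a1 was higher in Jak2V617F (0.62 ± 0.15, limma adjusted p = 0.0298), and Slc16a1 (-0.68 ± 0.14, adjusted p = 0.0188) and Bsg (-0.53 ± 0.13, adjusted p = 0.0307) were lower. Per the study's supplement, the Slc2a1 deletion is larger in the Jak2V617F dKO clones than in the Jak2WT dKO clones. The part of these unequal deletions in the Slc2a1 difference was not tested. Slc2a3 overlapped (0.25 ± 0.49, adjusted p = 0.770). These calls hung on few clones. Without any 1 of the 4 Jak2WT libraries or of Jak2V617F dKO clone 1, Slc2a1 was no longer called (adjusted p = 0.0533 to 0.124). Slc16a1 was not without either Jak2WT dKO clone or Jak2V617F dKO clone 1 (adjusted p = 0.0725 to 0.0980), and Bsg kept its call with a library left out only where that was Jak2WT dKO clone 3 or a Jak2V617F GLUT1/3 WT clone (otherwise adjusted p = 0.0577 to 0.158). With no filter on low values, Slc2a1, Slc16a1 and Bsg were not called either (adjusted p = 0.0640 to 0.0968). With only the dKO libraries fitted, Slc2a1 (adjusted p = 0.0721) and Bsg (adjusted p = 0.0735) were not called and Slc16a1 was (adjusted p = 0.0469).

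**Figure D4:**
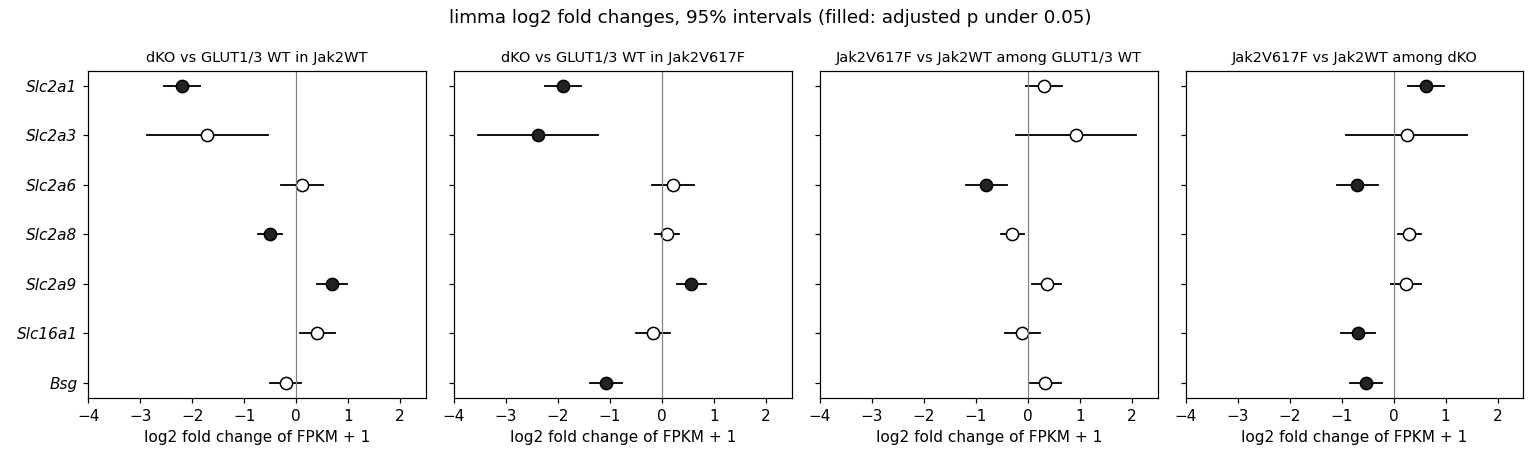
Log2 fold changes of FPKM + 1 (horizontal axis) of the 7 tested members in 4 comparisons. Points are limma estimates, bars their 95% intervals, and filled points have an adjusted p under 0.05. Slc2a1 lies at -2.20 and -1.90 in the dKO comparisons, Slc2a3 has the widest interval in every panel, and Bsg is at -0.20 in Jak2WT against -1.08 in Jak2V617F.

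Genes that act next to these transporters were taken from 4 lists of 32 genes, of which 22 were tested. The alternatives were followed gene by gene for the members only, so how far the calls below depend on the fit was not tested. Hexokinase and glucose-6-phosphate isomerase follow uptake. Of the 4 phosphorylation genes tested, Hk1, Hk2 and Gpi1 fell in the dKO of both backgrounds and Hk3 did not pass in either, where 6.06% (Jak2WT) and 16.2% (Jak2V617F) of all tested genes fell. Hk2, the inducible hexokinase, went from 59.8 and 59.1 FPKM to 41.4 and 44.8 in Jak2WT (-0.46, limma adjusted p = 0.0279) and from 65.5 and 69.0 to 32.2 and 26.9 in Jak2V617F (-1.17, adjusted p = 0.00055). Gpi1 changed by -0.52 (adjusted p = 0.0235) and -1.24 (adjusted p = 0.00055). The decrease was larger in Jak2V617F for both, by 0.71 for Hk2 (adjusted p = 0.0270) and 0.72 for Gpi1 (adjusted p = 0.0314). The list's median was -0.46 in Jak2WT and -0.85 in Jak2V617F.

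Of the 3 tested genes of lactate and pyruvate handling, Ldha, which makes lactate from pyruvate, fell in Jak2V617F (from 1089 and 969 FPKM to 523 and 386, -1.19, limma adjusted p = 0.00218). In Jak2WT it went from 816 and 868 FPKM to 623 and 526 (-0.56, adjusted p = 0.0584), and the difference between the effects did not pass (-0.64, adjusted p = 0.110). The mitochondrial pyruvate carrier genes Mpc1 and Mpc2 passed in neither dKO comparison. Ldhb was listed at 0 in all libraries.

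The list of transporter chaperones and trafficking had 10 tested genes, of which 1 fell in Jak2WT and 2 in Jak2V617F, where 6.06% and 16.2% of all tested genes fell. Txnip, a protein that holds GLUT1 back from the cell surface and whose gene is induced by glucose, was the former. It was at 54.4 and 62.0 FPKM in Jak2WT GLUT1/3 WT and at 10.3 and 16.2 FPKM in Jak2WT dKO, and at 24.6 and 29.2 FPKM in Jak2V617F GLUT1/3 WT and 17.6 and 17.9 FPKM in Jak2V617F dKO. The groups were apart in both backgrounds. The change was -2.08 in Jak2WT (limma, adjusted p = 0.00259) and -0.57 in Jak2V617F (adjusted p = 0.0595), with a difference of 1.51 (adjusted p = 0.0195). The retromer subunits Vps26a (-0.39, adjusted p = 0.0121) and Vps35 (-0.52, adjusted p = 0.0101), which return GLUT1 from endosomes, fell in Jak2V617F, while Vps29 and Snx27 passed in neither background. Tbc1d1, Tbc1d4, Rab4a and Gipc1 passed in neither. The list's medians were -0.072 and -0.22.

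Among 5 tested regulators of transporter transcription, Hif1a (-0.46, limma adjusted p = 0.00543), its partner Arnt (-0.70, adjusted p = 0.00258), Myc (-0.47, adjusted p = 0.0121) and Sp1 (-0.31, adjusted p = 0.0276) fell in Jak2V617F dKO, where 16.2% of all tested genes fell, and Mlxip did not pass. In Jak2WT, where 6.06% fell, only Sp1 of the 5 did (-0.34, adjusted p = 0.0365), with Hif1a at 0.077, Arnt at -0.21 and Myc at 0.25. The effects differed between backgrounds for Hif1a (-0.54, adjusted p = 0.0291) and Myc (-0.72, adjusted p = 0.0248) and not for Arnt (-0.49, adjusted p = 0.0631), where they differed for 10.6% of all tested genes. These are transcript levels, and HIF-1 is known to be controlled mainly through the stability of its protein. The other Slc16a genes had 2 of 12 tested, Slc16a6 and Slc16a13, and neither passed in any comparison.

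**Figure D5:**
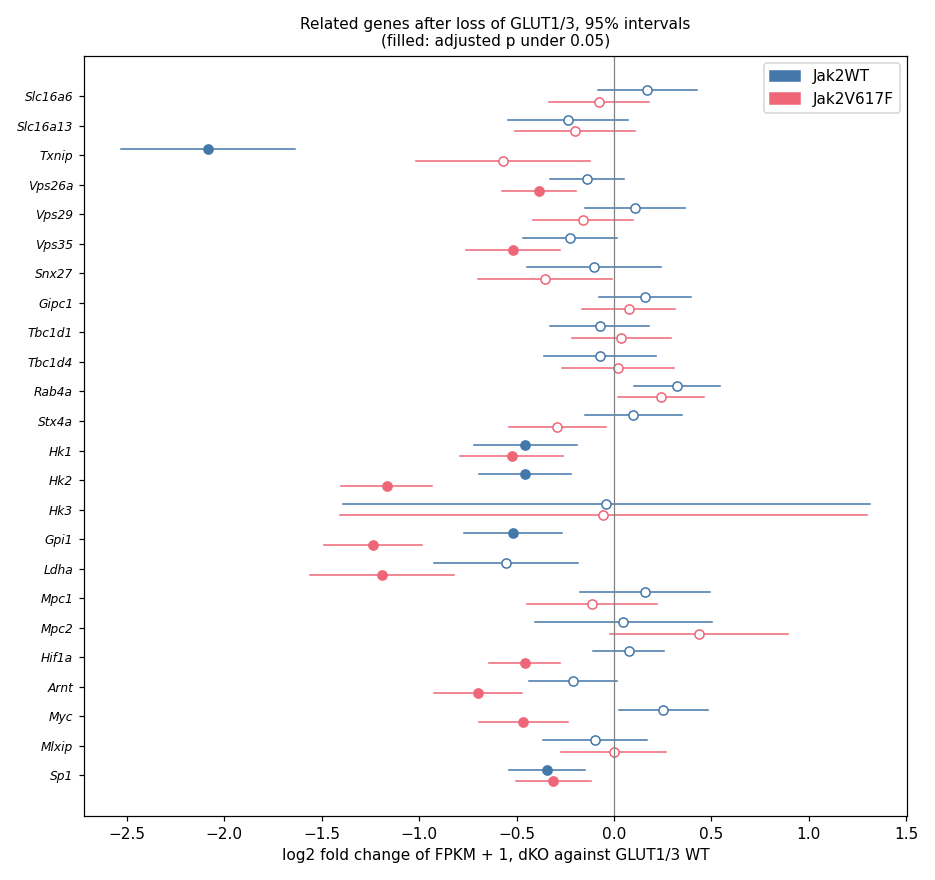
Log2 fold changes of FPKM + 1 (horizontal axis) in dKO against GLUT1/3 WT for the 24 tested genes of the related lists, in Jak2WT (blue) and Jak2V617F (red). Points are limma estimates, bars their 95% intervals, and filled points have an adjusted p under 0.05. Txnip lies at -2.08 in Jak2WT and -0.57 in Jak2V617F, while Hk2, Gpi1 and Ldha lie lower in Jak2V617F.

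Since HIF-1 binds RCGTG cores, the 250 bases before the start of each member were searched for ACGTG and GCGTG on both strands. RefSeq windows (GRCm38.p6) were at hand for 6 of the 8 members, and Slc2a3 and Bsg were not among them. Of 32851 mouse promoters of this length, 16.6% held ACGTG, 28.2% GCGTG and 38.6% at least one of them. The windows of Slc2a1, Slc16a1 and Slc16a3 are shown, Slc2a1 and Slc16a3 as textbook targets of HIF-1 and Slc16a1 as the source of nearly all MCT transcript here, with capitals for the matches read on either strand. They are chr4:119108495-119108744, chr3:104638414-104638663 and chr11:120948817-120949066, all on the forward strand.
Slc2a1 promoter: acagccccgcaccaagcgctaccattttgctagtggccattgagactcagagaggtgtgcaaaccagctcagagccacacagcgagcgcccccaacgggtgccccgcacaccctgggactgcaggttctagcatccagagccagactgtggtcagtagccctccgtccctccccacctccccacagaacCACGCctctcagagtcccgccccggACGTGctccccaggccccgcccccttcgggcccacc
Slc16a1 promoter: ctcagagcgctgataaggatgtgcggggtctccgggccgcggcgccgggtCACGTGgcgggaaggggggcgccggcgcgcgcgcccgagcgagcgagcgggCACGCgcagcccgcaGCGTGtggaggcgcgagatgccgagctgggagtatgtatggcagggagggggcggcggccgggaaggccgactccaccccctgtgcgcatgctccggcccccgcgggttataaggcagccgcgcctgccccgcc
Slc16a3 promoter: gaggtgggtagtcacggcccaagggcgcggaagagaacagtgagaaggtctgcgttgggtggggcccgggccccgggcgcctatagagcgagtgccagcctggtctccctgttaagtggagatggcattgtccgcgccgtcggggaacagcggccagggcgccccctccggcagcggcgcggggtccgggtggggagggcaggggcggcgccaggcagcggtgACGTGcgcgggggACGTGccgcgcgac
Slc2a1 held 1 ACGTG and 1 GCGTG. Slc16a1 held 2 GCGTG and 2 ACGTG, the latter being both strands of a single palindrome (CACGTG). Slc16a3 held 2 ACGTG within the last 27 bases. Slc2a6 held 4 GCGTG, Slc2a8 held 1 GCGTG and Slc2a9 held neither. Matches were thus present both in abundant members (Slc2a1 and Slc16a1) and in the nearly absent Slc16a3. A match is a run of letters and shows no binding.

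The genes whose profile over the 8 libraries lay nearest to that of each tested member were found by the root mean square difference of centred log2(FPKM + 1) values, with no test. For Slc2a1 these were Ankrd37 (0.21), Ccng2 (0.24) and Gm31342 (0.37), against a spread of Slc2a1 itself of 1.06. For Slc2a3 they were Ankrd37 (0.43), Slc2a1 (0.50) and Gm31887 (0.53), so the edited pair lay close to each other and had a neighbour in common. The nearest to Bsg were Itm2b (0.099), Il4ra (0.11) and Egfl7 (0.12), and to Slc16a1 they were Srprb (0.065), Tmed9 (0.075) and Lman1 (0.084). Slc2a9 had Oas1a (0.083) and Snx15 (0.089) among its nearest. Slc2a8 had Gm8066 (0.060), Fzr1 (0.067) and Ckap5 (0.067), and Slc2a6 had Bcl7c (0.084), Fam102b (0.086) and Tcp11l1 (0.093). Members with a small spread of their own have many near neighbours by this measure.

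Other listed genes share parts of the members' loci. Slc2a1 (3506 bases, chr4:118965908-118995180) overlaps Mir1957a on its own strand, listed with 18 to 116 reads, and the antisense genes Gm12867 with 18 to 243 reads and Gm12868 with 1 to 15 reads, against 948 to 6206 reads on Slc2a1. Slc2a3 (7245 bases, chr6:122704768-122778599) overlaps the processed pseudogene Gm4482, with 9 to 56 reads against 3317 to 35897. No listed gene overlaps Slc2a6, Slc2a8, Slc2a9 or Bsg. The edited genes' own reads therefore outnumbered those of any overlapping gene in the table.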

How the data were processed

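The authors deposited 1 table of FPKM values per gene for 8 poly(A) RNA libraries. Per the labels' processing notes, the reads went through fastp (1.0.1), the aligner HISAT2 (2.2.1, on mm39) and the counter featureCounts (2.0.6), while the annotation version, the strand setting and the total behind FPKM are not given in the sources used here. Reads per gene were recovered, since each value times its gene length is a whole number of equal steps in a library (tolerance 0.01). The total used was 0.937 to 1.06 times these reads.

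The 11818 genes reaching an FPKM of 1 in 2 or more libraries were tested with limma 3.58.1 (R 4.3.3) on log2(FPKM + 1), with 1 mean for each of 4 groups, an intensity trend, 4 residual and 3.34 prior degrees of freedom, and Benjamini-Hochberg adjustment over all genes at 0.05. The pseudocount understates the change of low genes. On simulated data for the Jak2V617F dKO comparison (11535 genes), 172 of 198 genes changed 2-fold were recovered and 14 others called. The simulated noise beyond counting error was the same for every gene and group. Between real clones the chi-square per gene ran from 7.88 in Jak2WT GLUT1/3 WT to 34.6 in Jak2V617F dKO, so this recovery need not hold for these data. The 18 alternatives were a smaller pseudocount (0.1), no filter, filtering on mean FPKM, no trend, a robust step, equal totals, median ratio scaling, voom, only the compared groups, a clone number block and 8 fits without a library each. Guides were matched to GRCm39. Figures used matplotlib 3.10.9 (Python 3.11.15).

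Named genes were the members, every gene of the lists and the 3 nearest genes of each member. Members and lists were chosen with earlier results of these data known. One GLUT1 guide and some other items are not reported here.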

Additional observations from a re-analysis of the deposited data

Results flagged for a closer look

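The groups hold 2 clones each, too few to single out a library as an outlier, so the results given here are those of members and listed genes whose dKO effect differed between Jak2V617F and Jak2WT by the interaction term of the limma fit (adjusted p under 0.05, where 10.6% of all tested genes passed). Among the members these were Slc2a8, with an effect 0.60 higher on the log2 scale in Jak2V617F (adjusted p = 0.0368), and Bsg, with an effect of -0.87 relative to Jak2WT (adjusted p = 0.0302). Among related genes, Txnip had a difference of 1.51 (adjusted p = 0.0195), Hk2 of -0.71 (adjusted p = 0.0270), Gpi1 of -0.72 (adjusted p = 0.0314), Hif1a of -0.54 (adjusted p = 0.0291) and Myc of -0.72 (adjusted p = 0.0248). Among the marker lists, the leukocyte gene Ptprc had a difference of -1.14 (adjusted p = 0.0124), Csf2rb, the common beta chain of the IL-3 receptor, of -0.87 (adjusted p = 0.0401), and the platelet gene Gp9 of -0.73 (adjusted p = 0.0440). Of these 10 genes, out of 49 members and listed genes tested, 8 had a lower effect in Jak2V617F and Slc2a8 and Txnip a higher one, where 5.91% of all tested genes had a lower and 4.72% a higher one. The calls on related and marker genes were not followed through the alternatives.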

How the results depend on the processing

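Of 618 values of members under alternatives, 538 kept their direction and side of the threshold, 60 kept the direction but were no longer called, 14 were newly called and 6 changed sign. The 6, each without 1 library and none called, were Slc16a1 in Jak2V617F dKO without dKO clone 1 (0.0088, lowest -0.35 without dKO clone 3), Slc16a1 among GLUT1/3 WT without Jak2V617F clone 3 (0.028), Slc2a3 among dKO without clone 1 of Jak2WT (-0.53) or Jak2V617F (-0.24, highest 1.04 without Jak2WT clone 3), the Slc2a3 interaction without Jak2WT dKO clone 3 (0.10, lowest -1.46 without clone 1) and the Slc2a6 interaction without Jak2V617F dKO clone 3 (-0.016, highest with a library left out 0.22 without clone 1, and 0.86 over all alternatives). Members called, Slc2a6 included, for the dKO in Jak2WT numbered 3, 1 with no filter on low values and 1 to 3 with a library left out. For the dKO in Jak2V617F they numbered 4, then 2 and 3 to 4, for background among dKO 4, then 1 and 0 to 4, and for the interaction 2, then 0 and 0 to 1. Fitted on the groups compared only, 1 (Slc16a1) was called for background among dKO. For background among GLUT1/3 WT the number was 1, 0 with a filter on the mean FPKM, 3 without the trend, 2 with a pseudocount of 0.1, the same total FPKM, median ratio scaling, voom on recovered reads or the groups compared only, and 0 to 2 with a library left out. A library left out leaves fewer samples, and the lone clone of its group is assumed to vary like the other groups. In other cases the cause was not tested. Over all genes, calls for the dKO in Jak2WT went from 1617 to 714 with no filter, 2605 with voom and 110 to 1974 with a library left out. In Jak2V617F they went from 3533 to 1617 (groups compared only) and 2131 to 2985, among GLUT1/3 WT from 3577 to between 1583 and 3969, among dKO from 2019 to 1028 (groups compared only) and 620 to 1992, and for the interaction from 1256 to 346 with no filter, 1896 with voom and 5 to 1256. Scaling to the same total FPKM moved the median of all genes by -0.13 for background among GLUT1/3 WT and by 0.16 for the interaction, and changed no member's sign. Between clones of the same number the correlation of deviations was -0.25 to 0.15. The lowest value was that of Jak2WT GLUT1/3 WT with Jak2V617F GLUT1/3 WT, and a crossed pairing of clones was not tested. Adding the clone number as a replicate block changed 1 call, that of Slc2a6 for background among dKO (-0.69, adjusted p = 0.0579), and called 1323, 3226, 3355, 1769 and 956 genes in the 5 comparisons. Depth limited Slc16a3 (8 to 50 reads) and Slc2a6 in Jak2V617F (11 to 39 reads).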
